A study of Mus musculus with 32 samples.

Results

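Potassium channels are membrane proteins that let potassium ions pass along their gradient, which sets the resting potential of a cell and ends its electrical signals. In glia, inward rectifier and two-pore channels carry the potassium that active neurons release, in neurons and endocrine cells voltage-gated, G-protein-gated and calcium-activated channels shape firing, and in the vessel wall they set muscle tone. The genes described here were the rows of the count matrix whose gene symbol begins with Kcn, the root shared by potassium channel subunits and their partners, and that held at least 20 counts over all cells. 99 of the 27998 rows carried such a symbol, and 69 passed the minimum. Of the 69, 66 are protein coding and 3 are noncoding or antisense transcripts (Kcnq1ot1, Kcnmb4os2 and Kcnd3os). By symbol they fall into 27 voltage-gated subunits (Kcna, b, c, d, f, g, h, q, s and v), 10 inward rectifiers (Kcnj), 9 two-pore channels (Kcnk), 8 calcium- or sodium-activated channels (Kcnma, n, t and u), 12 accessory subunits (Kcnab, Kcne, Kcnip and Kcnmb) and the 3 noncoding rows. The other 30 rows lay under the minimum, and 8 of them held no count. Kcnj6 was the last row inside with 26 counts, and Kcns1 the first outside with 19.

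The cells came from the median eminence (ME), the floor of the third ventricle of the brain, where hypothalamic nerve endings meet fenestrated vessels. Male C57B/L6 mice, aged 40 to 47 days, were either fasted overnight (16 h, 5 mice) or refed with normal chow for 1 h after the same fast (5 mice). Tissue was pooled by condition, nucleated cells that excluded DAPI were sorted, and each condition was split over 2 libraries of droplet-based single-cell RNA sequencing, which counts captured transcripts as unique molecular identifiers (UMIs). The matrix holds 5982 cells and 29288898 UMIs (median 3837 per cell), and barcodes carry a suffix, 1 to 4, that the labels, the matrix and the methods read here do not tie to a library or a condition. Fasted and refed cells therefore form 1 pooled sample, no value below compares the conditions, and there is no test between groups, since 1 sample has no replicates.

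Levels are UMIs of a gene per 1000000 UMIs of a cell type (CPM, counts scaled by depth), with exact 95% Poisson intervals that cover counting error only. The spread over the 4 barcode numbers (1359 to 1642 cells each) is given beside them. It is not a measure of error alone, since any difference between fasted and refed mice may be part of it and cannot be told apart. 21 barcode sequences occurred under more than 1 number. CPM from these libraries is not divided by transcript length, so levels are compared for 1 gene across cell types and not between genes. Clusters of cells were named from marker lists, which gave 13 cell types: 1634 tanycyte-like cells (the radial glia lining the ventricle floor), 1420 astrocyte-like cells, 666 mature oligodendrocyte-like cells, 508 neuron-like cells, 402 microglia-like cells, 311 cells like oligodendrocyte progenitor cells (OPC-like), 268 like vascular and leptomeningeal cells (VLMC-like), 202 ependymocyte-like cells, 132 macrophage-like cells, 129 like differentiating progenitors (diffOPC-like), 88 like the endocrine cells of the pars tuberalis, 84 endothelial-like and 75 mural-like cells. Median depth ranged from 2245.5 UMIs in endothelial-like to 13412 in neuron-like cells, and 60 cells stayed unnamed.

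The 69 genes held 32869 UMIs, or 0.112% of all, with a median of 188 per gene. The 5 genes with most UMIs held 45.5% of these. Summed over the 69 genes, the level was highest in OPC-like cells at 2194 CPM, followed by astrocyte-like cells at 1786 and mural-like cells at 1445. Neuron-like cells, at 1309 CPM, lay between mature oligodendrocyte-like (1349) and pars tuberalis-like cells (1283). The lowest sums were 366 in microglia-like, 270 in endothelial-like and 209 in macrophage-like cells. Per cell the order differs, because neuron-like cells held several times more UMIs: 32 of the 69 genes (46.4%) had their highest mean UMIs per cell there, against 13 by CPM, and so did 45.9% of all genes with at least 20 UMIs. By that measure 41 of the 69 (59.4%) were at least 2-fold higher there (with 5 CPM added, as below), against 54.2% of all genes, so both shares were near the background.

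A gene was counted as higher in a cell type when its CPM there was at least 2 times that in all other cells, with 5 CPM added to both. For 60 of the 69 genes this held in at least 1 cell type, against 59.9% of the 15325 genes with at least 20 UMIs. It held in 1 type for 29 genes, in 2 or 3 types for 31 and in none for 9. Neuron-like cells had the most, 21 of 69 (30.4%), against 11% of all genes. OPC-like cells followed with 13 (18.8%, background 8.15%), and astrocyte-like cells (background 5.88%) and pars tuberalis-like cells (background 4.82%) had 11 each (15.9%). Mural-like and ependymocyte-like cells had 9 each (13.04%), against backgrounds of 7.41% and 10.4%. In neuron-like, OPC-like and astrocyte-like cells all of these genes had at least 20 UMIs in the type. Only 5 of the 11 did in pars tuberalis-like, 5 of the 9 in mural-like and 6 of the 9 in ependymocyte-like cells. The other types were near or under their backgrounds, with 4 genes each in mature oligodendrocyte-like (5.5%), diffOPC-like (6.1%) and microglia-like cells (8.54%), 3 each in VLMC-like (7.24%) and endothelial-like cells (9.54%), and 2 each in tanycyte-like (5.06%) and macrophage-like cells (8.27%). By the highest CPM alone, 13 genes (18.8%) peaked in neuron-like cells and 11 (15.9%) in OPC-like cells, against 11.9% and 12% of all genes. The median ratio to all other cells was 0.42 on the log2 scale for the 69 genes in neuron-like cells, and -0.09 for all genes. In tanycyte-like cells it was -0.56, and -0.10 for all genes.

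**Figure D1:**
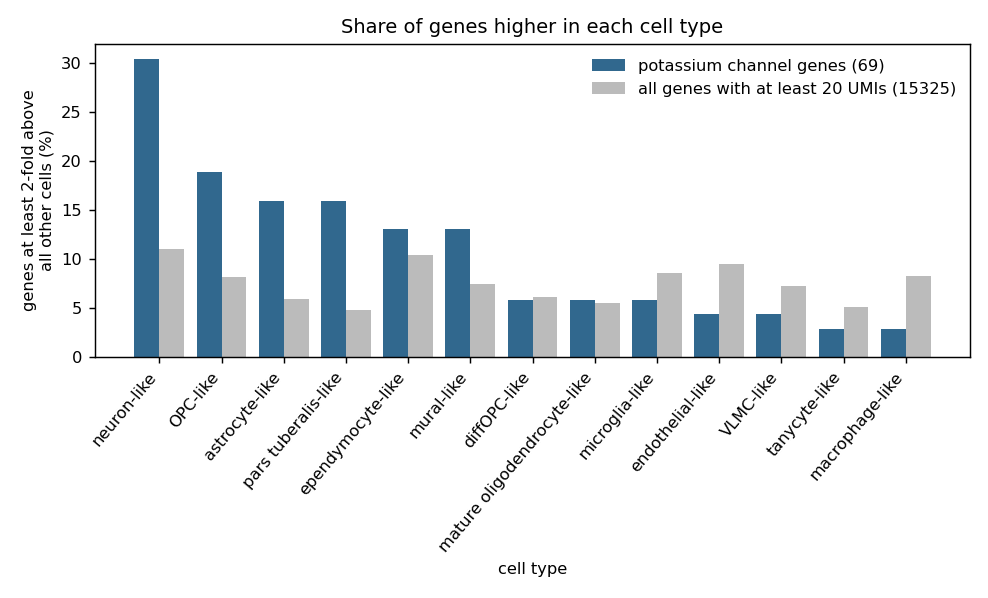
Bars show, for each of 13 cell types on the x axis, the percentage of genes at least 2-fold above all other cells, for the 69 potassium channel genes (blue) and for all 15325 genes with at least 20 UMIs (grey). Neuron-like cells stand at 30.4% against 11%, and macrophage-like cells at 2.90% against 8.27%.

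For 27 genes the Poisson interval in the type with the highest CPM lay wholly above that in the next type (39.1% of the 69, against 29.9% of all 15325 genes). For 26 genes (37.7%, against 24% of all genes), every barcode number of the highest type lay above every barcode number of all other types.

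**Figure D2:**
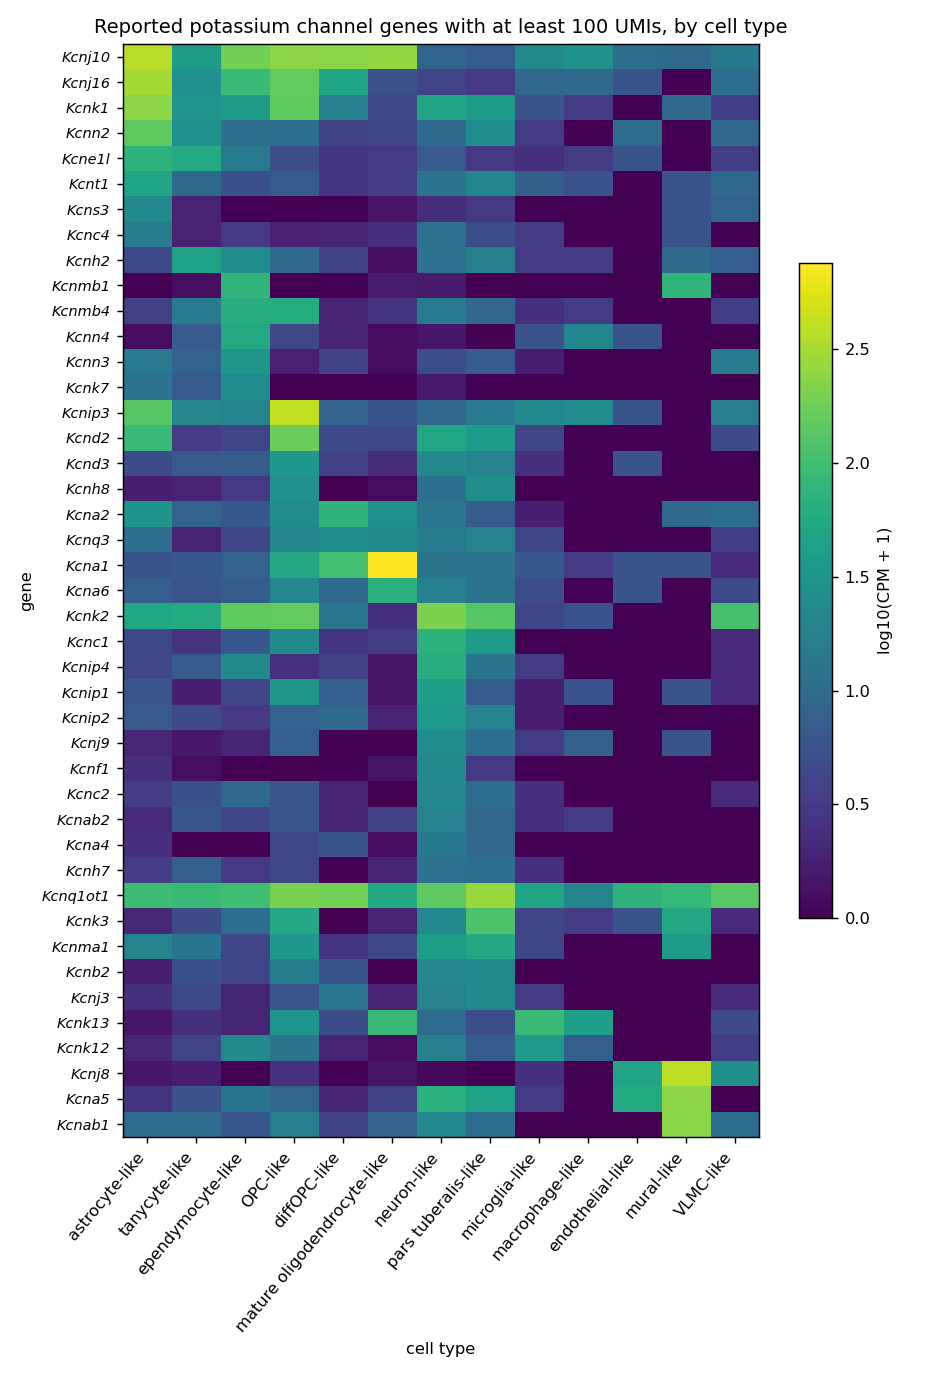
Colour gives log10(CPM + 1) of the potassium channel genes reported here with at least 100 UMIs (rows, ordered by the cell type where each is highest) in 13 cell types (columns). Kcna1 in mature oligodendrocyte-like cells is the brightest field at 755 CPM, and Kcnq1ot1, Kcnk2 and Kcnj10 are bright across several types.

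Promoter sequences of 53 of the 69 genes were found in a table of RefSeq promoters (build GRCm38.p6). Those printed here belong to Kcnj10, the main glial inward rectifier gene of the data set, and to 4 genes that were highest in mural-like cells and have 1 promoter each in the table. Each run is the 250 bases before the start site, read 5′ to 3′ on the gene's strand, and capitals mark matches to the E-box (CANNTG, which reads alike on both strands) or the GC box (GGGCGG, or CCGCCC when it lies on the other strand).
Kcnj10, chr1:172340960-172341209, plus strand: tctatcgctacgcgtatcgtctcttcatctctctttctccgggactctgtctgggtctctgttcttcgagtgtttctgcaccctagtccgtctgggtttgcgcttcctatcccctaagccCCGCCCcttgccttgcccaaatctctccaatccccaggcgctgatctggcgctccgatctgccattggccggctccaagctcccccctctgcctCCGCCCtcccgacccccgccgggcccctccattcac
Kcnj8, chr6:142571615-142571864, minus strand: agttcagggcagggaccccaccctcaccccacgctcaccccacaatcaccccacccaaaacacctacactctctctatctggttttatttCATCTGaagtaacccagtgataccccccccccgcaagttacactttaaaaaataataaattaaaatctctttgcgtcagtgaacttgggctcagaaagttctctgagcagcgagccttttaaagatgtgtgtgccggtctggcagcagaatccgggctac
Kcna5, chr6:126535556-126535805, minus strand: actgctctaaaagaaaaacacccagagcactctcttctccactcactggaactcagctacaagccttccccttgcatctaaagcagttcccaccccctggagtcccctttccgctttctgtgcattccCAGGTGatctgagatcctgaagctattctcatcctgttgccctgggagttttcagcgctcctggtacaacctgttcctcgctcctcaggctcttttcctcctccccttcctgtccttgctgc
Kcnj12, chr11:61065554-61065803, plus strand: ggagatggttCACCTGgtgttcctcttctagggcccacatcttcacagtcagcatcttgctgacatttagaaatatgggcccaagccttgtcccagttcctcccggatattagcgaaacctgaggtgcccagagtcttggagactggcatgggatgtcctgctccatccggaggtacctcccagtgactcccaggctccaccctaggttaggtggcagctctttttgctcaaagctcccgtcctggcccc
Kcne4, chr1:78816661-78816910, plus strand: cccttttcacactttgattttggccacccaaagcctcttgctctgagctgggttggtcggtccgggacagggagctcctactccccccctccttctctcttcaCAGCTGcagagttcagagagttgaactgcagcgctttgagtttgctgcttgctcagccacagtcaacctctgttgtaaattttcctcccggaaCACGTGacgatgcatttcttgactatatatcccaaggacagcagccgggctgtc
The Kcnj10 promoter held 17 CG pairs and 62% G and C, against medians of 6 and 52.4% over 32851 promoters, and matched the GC box at 2 places. The Kcnj8 promoter held 6 CG pairs, Kcne4 7, Kcnj12 4 and Kcna5 3. An E-box was present in 66.2% of all promoters, in 63.2% of the 76 promoters of the 69 genes and in 100% of the 7 promoters of the 5 genes highest in mural-like cells. The share varied widely between such small groups. It was 86.4% of 22 promoters for neuron-like, 60% of 10 for astrocyte-like, 44.4% of 9 for ependymocyte-like and 25% of 12 for OPC-like cells. A GC box was present in 32.7% of all promoters and in 44.7% of those 76. Each match is a run of letters and not a known binding site.

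Among the inward rectifiers, Kcnj10, whose channel takes up potassium around synapses and myelin, was high across macroglia. In astrocyte-like cells its level was 387, 366, 349 and 368 CPM in barcode numbers 1 to 4, and 369 CPM over all (interval 350.2 to 388). It was 257 CPM (243 to 272) in mature oligodendrocyte-like, 241 in OPC-like, 233 in diffOPC-like and 181 in ependymocyte-like cells. Tanycyte-like cells had 37.8 CPM, and neuron-like cells 7.41. A UMI of Kcnj10 was seen in 61.3% of astrocyte-like cells (median depth 2665) and in 8.86% of neuron-like cells (median depth 13412), a type whose share is given as the background. After thinning each cell to 1000 UMIs the shares were 30.8% and 0.591%. Kcnj16, whose subunit joins that of Kcnj10 in heteromeric channels, had 284, 308, 323 and 318 CPM in astrocyte-like cells (307 over all, 290.0 to 325). It had 155 CPM in OPC-like, 88.1 in ependymocyte-like, 48.4 in diffOPC-like and 27.3 in tanycyte-like cells. In mature oligodendrocyte-like cells Kcnj16 was at 4.12 CPM, so the type with the second level of Kcnj10 had almost none of its partner. Both genes had a UMI in 493 of 1420 astrocyte-like cells (34.7%, where the product of the separate shares is 33.2%) and in 16 of 666 mature oligodendrocyte-like cells (2.40%). The remaining genes of the glial list, Kcnj2 (56 UMIs) and Kcnj13 (17 UMIs, under the minimum), did not exceed 8.22 and 9.85 CPM in any type.

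Of the ATP-sensitive channel, which closes as cell energy rises, Kcnj8 and its sulphonylurea receptor partner Abcc9 were found in mural-like cells. Kcnj8 was at 391 CPM there (314 to 482, 88 UMIs), 46.5 in endothelial-like and 25.9 in VLMC-like cells, and at or under 1.58 CPM in the other types. Without barcode number 2 the mural-like level was 260.5 CPM. Without numbers 1 and 2 it was 38.1, under the 46.5 of endothelial-like cells over all 4 numbers. Endothelial-like cells had 0, 50.3, 122 and 0 CPM by barcode number. Abcc9 was at 107 CPM in mural-like cells (24 UMIs), or 52.4 without barcode number 1, and at or under 9.30 elsewhere. Kcnj11, which encodes the pore of the neuronal and beta cell form, had no UMI in 29288898, and its receptor Abcc8 was at or under 1.99 CPM in each type.

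The G-protein-gated subunits, through which inhibitory receptors silence neurons, were low. Kcnj9 was at 24.2 CPM in neuron-like cells (25.3, 23.2, 24.8 and 23.5 by barcode number) and at 9.93 CPM from 5 UMIs in pars tuberalis-like cells. Kcnj3 had 18.6 CPM in neuron-like and 21.8 in pars tuberalis-like cells, with overlapping intervals. Kcnj5 and Kcnj6 did not exceed 5.96 and 3.15 CPM in any type.

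Among the two-pore genes, Kcnk2, which encodes a channel opened by stretch and lipids, was found in neurons, glia and leptomeningeal cells alike. In neuron-like cells it had 251, 217, 179 and 189 CPM by barcode number, and 203 over all (192 to 214). OPC-like cells had 155 CPM, ependymocyte-like 149, pars tuberalis-like 131, VLMC-like 108, tanycyte-like 55.8 and astrocyte-like 52.7. Mature oligodendrocyte-like, microglia-like and macrophage-like cells were at 1.52 to 4.31 CPM, and endothelial-like and mural-like cells had no UMI, which allows up to 13.95 and 13.34 CPM. Kcnk1, a weakly inward rectifying two-pore channel, had 252, 250, 232 and 210 CPM in astrocyte-like cells (237 over all, 222 to 252) and 149 in OPC-like cells.

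Kcnk13 was found in 2 unrelated types. Microglia, where its channel is known to set the resting potential, had 78.4, 76.3, 111 and 113 CPM by barcode number (88.9 over all, 73.7 to 106), and mature oligodendrocyte-like cells had 92.3, 86.9, 72.7 and 90.2 (85.4 over all, 77.2 to 94.3). These intervals overlap, and macrophage-like cells followed at 40.9 CPM. Astrocyte-like and tanycyte-like cells were at 0.510 and 1.45 CPM. Kcnk12, its close relative, was highest in microglia-like cells at 34.4 CPM (25.2 to 45.8) and reached 22.0 in ependymocyte-like and 16.9 in neuron-like cells. Kcnk6 was found mainly in the immune cells, with 35.1 CPM in microglia-like (47 UMIs) and 21.5 in macrophage-like cells (10 UMIs), and 0 to 1.99 CPM elsewhere. Its barcode numbers ranged from 20.1 to 60.8 CPM in microglia-like cells.

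Kcnk3, an acid-sensitive two-pore channel gene, was highest in pars tuberalis-like cells, with 150, 134, 82.8 and 119 CPM (119 over all, 90.9 to 153), and stood at 53.6 in OPC-like and 53.3 in mural-like cells. Kcnk10, related to Kcnk2, had 21.3 CPM in OPC-like cells (27 UMIs) and at most 2.42 in any other type. Kcnk7 had 24.0 CPM in ependymocyte-like and 11.7 in astrocyte-like cells.

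**Figure D3:**
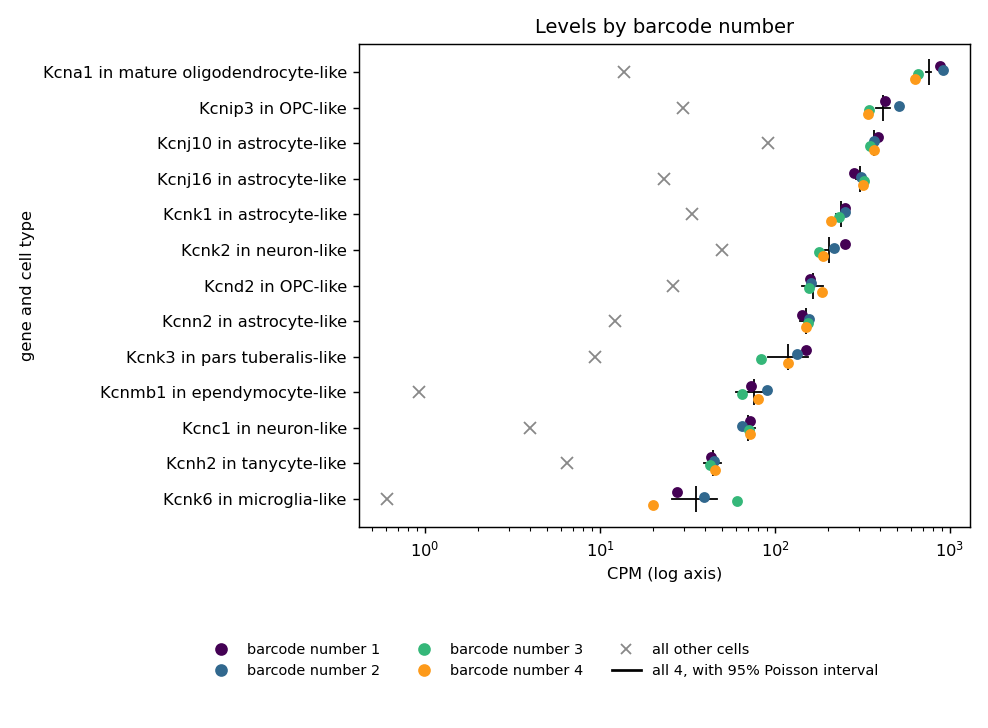
Points give the CPM (log x axis) of 13 gene and cell type pairs (y axis) in each of the 4 barcode numbers, black ticks and lines the level over all 4 with its 95% Poisson interval, and grey crosses the level in all other cells. Each of the 13 genes lies above the level of all other cells in every barcode number, and Kcnk6 has the widest relative spread, from 20.1 to 60.8 CPM.

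Among the voltage-gated genes, Kcna1 encodes a channel that sits beside the node of Ranvier in myelinated axons, and its transcript was concentrated in mature oligodendrocyte-like cells at 877, 908, 656 and 631 CPM by barcode number, with 755 over all (730.3 to 781). These cells held 91.2% of its 3821 UMIs. DiffOPC-like cells had 99.5 CPM and OPC-like cells 53.6, so each step along the lineage had more, while the other 10 types were at 1.23 to 11.9 CPM. Barcode numbers 1 and 2 were both above numbers 3 and 4, and the lowest of the 4 was 4.95 times the highest value of any other type, which was 127 CPM. A UMI of Kcna1 was present in 95.2% of mature oligodendrocyte-like cells (93.3 to 96.7, median depth 6150) and in 1.74% of microglia-like cells (median depth 3079.5). At 1000 UMIs per cell these were 52.3% and 0.498%. Kcna6, which lies 61.9 kb from Kcna1 on chromosome 6 (build GRCm38, 126640397 to 126646384 for Kcna1 and 126708329 to 126740674 for Kcna6), was also highest in mature oligodendrocyte-like cells, with 83.1, 72.2, 57.3 and 64.5 CPM (68.9 over all, against 20.5 in OPC-like cells). Kcna2 peaked earlier in the lineage, in diffOPC-like cells, with 64.8, 63.7, 83.1 and 80.9 CPM (73.1 over all, 58.2 to 90.6). It was 26.7 in mature oligodendrocyte-like, 30.1 in astrocyte-like and 23.7 in OPC-like cells.

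Within mature oligodendrocyte-like cells, Kcna1 had 833 CPM in the main cluster of 568 cells, 505 in the cluster of 71 cells led by Klk6 and Anln, and 465 in that of 27 cells led by Mag and Nfasc. Kcnj10 went the other way, with 249, 295 and 275 CPM in the same order. Kcna1 itself was among the 10 leading genes of the main cluster, so its level there is a description of how the cells were grouped. When the cells were clustered without any Kcn gene, its level in mature oligodendrocyte-like cells was 785 CPM.

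Kcnc1, which encodes a rapidly closing channel of fast-firing neurons, was highest in neuron-like cells. It had 71.5, 65.0, 71.4 and 71.8 CPM there (70.5 over all, 64.2 to 77.2), 37.7 in pars tuberalis-like and 22.1 in OPC-like cells. A UMI was found in 52.8% of neuron-like cells and in 0 of 402 microglia-like cells, which allows a share of up to 0.746%. At 1000 UMIs per cell the neuron-like share was 7.09%. Kcnf1, a silent subunit that acts only in heteromers, had 93.1% of its 159 UMIs in neuron-like cells (22.4 CPM, against at most 1.99 in any other type). Kcna4, Kcnc2, Kcnb2, Kcnv1 and Kcng2 were also at least 2-fold higher in neuron-like cells, at 7.26 to 20.6 CPM. Kcnb2 and Kcng2 had their highest CPM in pars tuberalis-like cells, at 21.8 and 15.9 from 11 and 8 UMIs.

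Of the M-current genes, whose channels hold neurons back from firing, Kcnq3 was highest in diffOPC-like cells at 26.4 CPM and next in mature oligodendrocyte-like cells at 22.3. Kcnq5 did not exceed 7.93 CPM.

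Of the 7 A-type genes of the set, which encode fast inactivating channels and their partners, Kcnd2, Kcnd3 and Kcnip3 were highest in OPC-like cells, Kcnip1, Kcnip2 and Kcnip4 in neuron-like cells and Kcnd1 in microglia-like cells. Kcnip3, a calcium-binding partner of Kcnd channels, had 427, 508, 343 and 340 CPM in OPC-like cells (414 over all, 379 to 451), 134 in astrocyte-like and at most 23.7 in any other type. It had a UMI in 78.5% of OPC-like and 5.97% of microglia-like cells, or 32.8% and 1.74% at 1000 UMIs per cell. Kcnd2, the pore gene, had 158, 160, 157 and 185 CPM in OPC-like cells (164 over all, 143 to 188), 85.9 in astrocyte-like and 50.5 in neuron-like cells. Both genes had a UMI in 121 of 311 OPC-like cells (38.9%, with 36.6% as the product of the shares). In diffOPC-like cells, the next stage, Kcnip3 was at 7.05 and Kcnd2 at 3.52 CPM. Kcnd3 had 33.1 CPM in OPC-like and 22.1 in neuron-like cells. Kcnd1 was instead highest in microglia-like cells, with 13.8, 21.8, 20.3 and 32.2 CPM (20.9 over all), against at most 5.52 elsewhere. Kcnip4 was at 61.4 CPM in neuron-like and 22.0 in ependymocyte-like cells, Kcnip2 at 34.04 in neuron-like cells, and Kcnip1 at 39.3 in neuron-like and 32.3 in OPC-like cells. Dpp6, an auxiliary subunit of the same channels, was at 134, 120 and 137 CPM in OPC-like, neuron-like and pars tuberalis-like cells, and Dpp10 at 29.2, 37.2 and 19.9.

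Tanycyte-like cells, with the most cells of any type, had 2 genes at least 2-fold above all other cells. Kcnh2, which encodes the channel known from cardiac repolarisation, was at 43.0, 45.0, 42.5 and 45.4 CPM by barcode number (44.0 over all, 39.2 to 49.2), and next highest in ependymocyte-like cells at 24.0. A UMI was seen in 16.1% of tanycyte-like cells (median depth 4102) and 0.150% of mature oligodendrocyte-like cells (median depth 6150). Kcne1l, an accessory subunit gene, was at 58.7 CPM in tanycyte-like and 71.3 in astrocyte-like cells, with overlapping intervals (53.2 to 64.7 and 63.2 to 80.2). The 3 clusters of tanycyte-like cells differed in Kcnk2, with 66.2 CPM in that led by Dio3 and S100a6, 108 in that led by Gfap and Tgfb2 and 19.9 in that led by Scn7a and Col25a1. Kcnn2 was at 47.9, 28.5 and 6.64 CPM in the same order. Kcnh2 was at 59.3, 36.8 and 33.6, and Kcnk1 at 8.04, 61.8 and 34.97.

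Among the calcium- and sodium-activated channels, Kcnn2, a small-conductance channel gene, was concentrated in astrocyte-like cells at 143, 156, 154 and 151 CPM (151 over all, 139 to 163), and the next type was tanycyte-like at 26.8. Its 3 astrocyte-like clusters were close, at 140 to 160 CPM. Kcnt1, a sodium-activated channel gene, was at 47.6 CPM in astrocyte-like and 19.9 in pars tuberalis-like cells. Kcnn4, Kcnn3 and Kcnn1 were highest in ependymocyte-like cells, at 57.1, 32.03 and 16.01 CPM, and Kcnn4 was next highest in macrophage-like cells at 19.4. None of these 4 Kcnn genes had its highest CPM in neuron-like cells, where they were at 0.454 to 8.62 CPM. Only 11.9% of all genes had their highest CPM there, so this does not set the 4 genes apart. The intervals of Kcnn3 and Kcnn1 overlapped those of the next types, VLMC-like (14.8 CPM) and OPC-like cells (5.52 CPM). Kcnma1, the large-conductance pore gene, was at 53.6 CPM in pars tuberalis-like, 39.2 in neuron-like, 35.6 in mural-like and 33.1 in OPC-like cells, with overlapping intervals.

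The beta subunits of that channel, which tune its calcium sensitivity, differed in place. Kcnmb1 was at 76.1 CPM in ependymocyte-like cells (72.4, 90.4, 65.1 and 79.8 by barcode number) and 75.6 in mural-like cells (17 UMIs), and at 0 to 0.650 CPM elsewhere. It lies within Kcnip1 on the opposite strand, and whether counting used strand is not given in the sources used here, but the patterns were unlike: Kcnip1 was at 3.003 CPM in ependymocyte-like cells, and Kcnmb1 at 0.605 in neuron-like cells. In ependymocyte-like cells the pore gene Kcnma1 was at 3.003 CPM. Kcnmb2 was at 45.7 CPM in pars tuberalis-like cells (23 UMIs, 18.3 to 64.4 by barcode number) and 4.99 in neuron-like cells. Kcnmb4 was at 61.1 CPM in ependymocyte-like and 59.9 in OPC-like cells. Its antisense neighbour Kcnmb4os2 was highest in the same 2 types (11.0 and 18.1 CPM). On chromosome 10, Kcnmb4 spans 116417861 to 116473878 on the minus strand and Kcnmb4os2 spans 116473163 to 116475319 on the plus strand. They thus overlap only at their 5′ ends, while the libraries were made with a 3′ kit. Whether any reads were shared was not tested. Kcnmb3 had no UMI.

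Mural-like cells, which wrap vessels, were few. In them 5 genes stood wholly above the next type by their intervals. The share of all genes that did so in this type is not given, so the count is a description. For Kcnj8 and Kcna5, not every barcode number lay above all other types. By barcode number, Kcnj8 was at 809, 984, 33.8 and 41.7 CPM. Kcna5, a voltage-gated gene of vascular muscle, was at 188, 73.8, 270.3 and 348 CPM, and Kcnab1, a beta subunit of such channels, at 169, 98.4, 338 and 264. Kcne4 was at 94.0, 221, 118 and 55.6 CPM, and Kcnj12 at 188, 98.4, 84.5 and 55.6. Kcnj8 was thus high in numbers 1 and 2 and low in 3 and 4, while Kcna5 and Kcnab1 were highest in numbers 3 and 4 and lowest in number 2. Without numbers 1 and 2, the level of Kcnj8 in mural-like cells rested on 5 UMIs. The cells themselves fell apart in the same way: 26 had a UMI of Kcnj8, 28 had one of Kcna5, 21 had neither and 0 of 75 had both, which allows a share of up to 4%, where the product of the shares is 12.9%. The 26 cells with Kcnj8 had 17189 CPM of Vtn, 3057 of Higd1b and 76.9 of Acta2. The 28 cells with Kcna5 had 359, 698 and 17004. Vtn and Higd1b are known from pericytes and Acta2 from smooth muscle. Kcnj8 was present in 10 of 21, 13 of 17, 2 of 19 and 1 of 18 mural-like cells in barcode numbers 1 to 4. Vtn moved with it, from 8106 and 11368 CPM in numbers 1 and 2 to 1672 and 862 in numbers 3 and 4, whereas Acta2 was 9742, 4109, 15744 and 16435. The mural-like levels of these genes are therefore means over cells with and without Kcnj8, whose proportions differed between barcode numbers. From the summed CPM alone, fewer cells of a kind and less RNA per cell cannot be told apart, so the shares of cells are given beside it. Median depth of the mural-like cells was 1989, 1914, 3120 and 3851 UMIs in barcode numbers 1 to 4. It was 1795.5 UMIs in the 26 cells with Kcnj8 and 3538 in the 28 with Kcna5. The product of the shares takes no account of depth. Why the proportions differed was not tested.

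**Figure D4:**
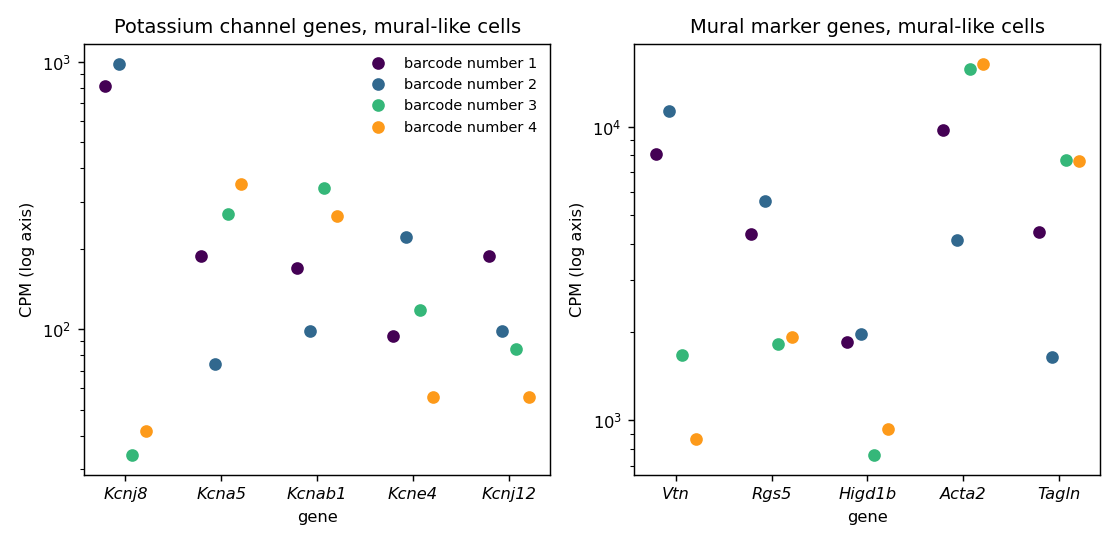
CPM (log y axes) of 5 potassium channel genes (left) and 5 mural marker genes (right) in the 75 mural-like cells, with 1 point for each of the 4 barcode numbers. Kcnj8 and Vtn are high in numbers 1 and 2, and Kcna5, Acta2 and Tagln are higher in numbers 3 and 4.

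Kcna5 was also present outside vessels. Neuron-like cells had 87.2, 82.6, 49.98 and 61.7 CPM (66.6 over all, 60.5 to 73.1), which was 73.1% of its UMIs, and endothelial-like cells had 55.8 (12 UMIs).

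The neuron-like cells fell into 3 clusters, and potassium channel genes differed among them. Kcnk2 was at 390.5 CPM in the 65 cells led by Agrp and Npy, the peptides of hunger neurons, at 181 in the 365 cells led by Sst and Gal, and at 9.21 in the 78 cells led by Rgs16 and Vip. Kcna5 was at 75.3 and 71.9 CPM in the first and second of these, and Kcnip1 at 40.3 and 43.5. Neither gene had a UMI in the third cluster, which allows up to 5.52 CPM. Kcnf1 was at 60.4, 15.8 and 1.84 CPM in the same order. Kcnh8 and Kcnma1 went the other way, with 55.2 and 79.2 CPM in the cluster led by Rgs16 and Vip and at most 7.88 and 39.2 in the others. These clusters were drawn from the same counts, so their differences are a description.

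**Figure D5:**
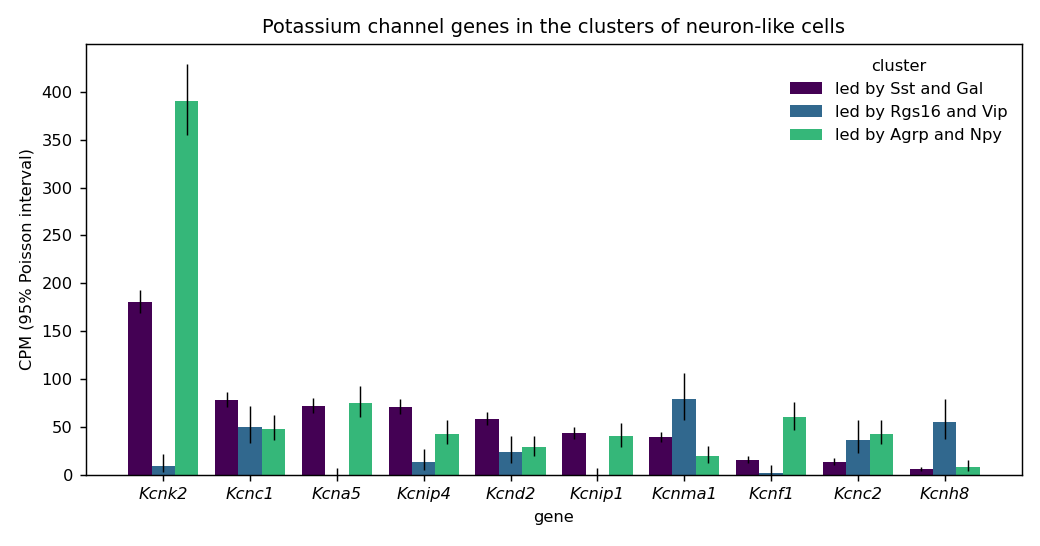
Bars give the CPM of 10 potassium channel genes (x axis) in the 3 clusters of neuron-like cells, with 95% Poisson intervals. Kcnk2 stands at 390.5, 181 and 9.21 CPM in the clusters led by Agrp and Npy, Sst and Gal, and Rgs16 and Vip, and Kcna5 and Kcnip1 are at 0 in the last.

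The noncoding row Kcnq1ot1, an antisense transcript of the imprinted Kcnq1 locus on chromosome 7, was detected in every type, from 19.4 CPM in macrophage-like to 270.1 in pars tuberalis-like cells (265, 196, 344 and 238 by barcode number). Kcnq1 itself had 9 UMIs in all, under the minimum.

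The other genes of the set were low or even. Kcns3, a silent subunit gene, was at 22.4 CPM in astrocyte-like cells (22.8, 27.1, 21.4 and 17.7 by barcode number), and Kcnc4 at 15.8 in the same cells. Kcnab2 had 17.7 CPM in neuron-like cells, Kcnt2 13.5 in VLMC-like and Kcnj4 11.9 in pars tuberalis-like cells. The highest CPM of Kcnh7, Kcnh1, Kcnd3os, Kcnab3, Kcnh5, Kcnu1 and Kcnk5 lay between 4.65 and 11.0. 9 genes were at least 2-fold above all other cells in no type, namely Kcnh1, Kcnh5, Kcnh7, Kcnj2, Kcnj5, Kcnj6, Kcnk5, Kcnq5 and Kcnu1.

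6 pairs of the 69 genes lie within 100 kb of each other in GRCm38, and 3 of these pairs overlap. Of the 6, Kcna1 and Kcna6 alone had their highest level in the same type. Kcnj9 and Kcnj10 are 11.9 kb apart on chromosome 1 (172320501 to 172329318 and 172341210 to 172374085), yet Kcnj9 was highest in neuron-like and Kcnj10 in astrocyte-like cells. Kcnj16 and Kcnj2 are 38.2 kb apart on chromosome 11, and Kcnj2 had 0.255 CPM in astrocyte-like cells.

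Other genes that move potassium gave a background to these patterns. The sodium pump beta subunit genes Atp1b2, the glial form, and Atp1b1, the neuronal form, were at 2186 CPM in astrocyte-like and 1269 in neuron-like cells. Slc12a5, which carries potassium and chloride out of neurons, was at 159 CPM in neuron-like and 143 in pars tuberalis-like cells, and at most 8.89 elsewhere. Slc12a2, which carries both inward, was highest in mature oligodendrocyte-like cells at 266 CPM. The water channel gene Aqp4, often found beside Kcnj10 in astrocyte endfeet, was at 469 CPM in astrocyte-like and 442 in ependymocyte-like cells but at 6.07 in mature oligodendrocyte-like cells. The cation channel gene Hcn2 was at 135 CPM in mature oligodendrocyte-like cells and at most 14.2 elsewhere. Of the 13 genes of this list, 12 had at least 20 UMIs, and 11 of these were at least 2-fold higher in at least 1 cell type, against the 59.9% of all genes given above.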

How the data were processed

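The 10x Genomics libraries of fasted and refed mice were mapped to GRCm38 (mm10) and counted as UMIs by the authors in Cell Ranger 2.0, and the annotation release and use of strand are not given in the sources used here. The deposited matrix holds these counts, without normalization, as 1 table of 5982 cells, and 27645 of 27998 gene identifiers were matched to symbols and positions in GENCODE vM21 (GRCm38). Columns of per-sample values left unused numbered 0. The 32 sample records are sequencing chunks of the 4 libraries, and the sources used here tie barcode numbers to none of them, so no groups were compared by a test and p-values are not given. Dixon's criterion was used to find single barcode numbers that lie apart.

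3 cells rich in haemoglobin transcripts (10% of UMIs or more) were kept out of the types. Counts were scaled to the median depth and log-transformed, and 2000 variable genes, 30 principal components, 15 neighbours and Leiden clusters at resolution 1 (seed 0) were computed with scanpy 1.11.5. A cluster took the name of a marker list when its score (mean CPM relative to the highest cluster) was at least 0.3 and 1.5 times that of the next list, with at least 3 markers, the first gene of the list among them, at least 4 times above the median cluster after 10 CPM were added. These thresholds were set after the data were seen. Clusters numbered 24, and 22 were named. Scrublet called 50 doublets (0.836%), which were kept except in 1 alternative. Cells were thinned to 1000 UMIs by drawing without replacement. Shares have exact Clopper-Pearson and levels exact Poisson intervals (95%), and where a gene had no UMI, the limit given is that of 3 counts. UMIs of 1 cell are not independent, so both cover counting error only.

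The genes, lists and marker genes were chosen with earlier results of these data known. Named were, for each cell type, the 3 genes with the highest CPM and the 3 with the highest ratio and at least 20 UMIs, and all genes of the functional lists. Some of these genes are counted but not reported here by name. The split of mural-like cells, the cluster values and the neighbouring genes were described after their values were seen. The script for the ratio was checked on simulated data. Alternatives were other clusterings, cell filters, pseudocounts, folds and minimums, and each barcode number left out.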

Additional observations from a re-analysis of the deposited data

Results flagged for a closer look

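For 22 genes with at least 100 UMIs in the type where they were highest, the 4 barcode numbers were checked for 1 value that lies apart from the other 3 by more than Dixon's 95% critical value for 4 values, and 2 were found. Chance alone gives about 1 in 20 where the 4 values are of 1 kind, which is not known here because the conditions are not tied to the numbers. Kcnd2 in OPC-like cells was at 185 CPM in barcode number 4 and at 157 to 160 CPM in the other 3. Kcnc1 in neuron-like cells was at 65.0 CPM in barcode number 2 and at 71.4 to 71.8 in the others. In both cases the separate value lay within the Poisson interval of the whole type (143 to 188 and 64.2 to 77.2 CPM).

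In cells that took no name, Kcnk5, which encodes an acid- and volume-sensitive two-pore channel, was at 52.7 CPM (25.3 to 96.9, 10 UMIs) in 41 cells whose leading genes were Ccn3 and Spon2. No named type exceeded 4.65 CPM. The same cells had 132 CPM of Kcnk1 (25 UMIs), 63.2 of Kcne4 (12 UMIs) and 47.4 of Kcnb2 (9 UMIs).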

How the results depend on the processing

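No paired analysis was possible because the columns of the matrix carry no replicate or condition. The counts of 69 genes, 13 highest in neuron-like cells, 21 at least 2-fold higher there and 60 higher in at least 1 type stayed within 1.5 times under most alternatives. K-means with 9 clusters gave 25 in at least 1 type and no cluster that could be named neuron-like, so it gives no neuron-like value. A 4-fold limit gave 8 in neuron-like cells and 31 in at least 1 type. By mean UMIs per cell, an alternative chosen after seeing the data, 32 genes were highest and 41 at least 2-fold higher in neuron-like cells, against 45.9% and 54.2% of all genes by the same measure. Leaving out 1 barcode number gave 67 to 68, 11 to 18, 22 to 24 and 62 to 63 for these counts. With 1 or 10 CPM added in place of 5, neuron-like cells had 31 or 17 genes. Apart from the mean UMIs per cell, no share of all genes is given for these alternatives. Their counts can therefore not be read as above or near a background. Of 290 repeated CPM values of 28 genes with at least 300 UMIs, 266 stayed within the Poisson interval, 24 moved outside it and 0 fell under the level of all other cells. Of the 24 moves, 12 came from thinning to 1000 UMIs per cell, where 16 of 28 values stayed. At 1000 UMIs per cell Kcnq1ot1 rose from 270.1 to 386 CPM in pars tuberalis-like cells, and Kcna2 in diffOPC-like cells was 31.0 in place of 73.1, from few UMIs. At resolution 2 Kcnk3 in pars tuberalis-like cells was 209 in place of 119, and Kcnq1ot1 198. Kcna1 in mature oligodendrocyte-like cells was 714 to 822 CPM with 1 barcode number left out. The cause of these moves was not tested. The depth limits statements on rare types: 3 UMIs are 13.34 CPM in mural-like and 13.95 in endothelial-like cells.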

Other observations

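Some two-pore, voltage-gated and accessory genes also had different levels in the clusters within astrocyte-like or microglia-like cells. In the 147 astrocyte-like cells led by Gfap and Id3, Kcnk1 was at 124.5 CPM and Kcnd2 at 37.8, against 255 and 94.1 in the 1015 cells led by Agt and Itih3, while Kcne1l was at 118 against 60.5. Kcnj10 was at 327 and 364 CPM in the same clusters, and at 415 in the 258 cells led by Spry2 and Lrrc8a. Among microglia-like cells, Kcnk13 was at 45.0 CPM (19.4 to 88.6, 8 UMIs) in the 48 cells led by Ccl4 and Junb. It was at 95.6 (78.7 to 115) in the other 354, with overlapping intervals. Kcnk6 had no UMI in the 48 cells, which allows up to 16.9 CPM, and 40.5 CPM in the 354. These clusters were drawn from the same counts, so the values are a description.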
